A study of Mus musculus with 2 samples.

Results

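The 10 genes described here make or sense the lipid mediators derived from arachidonate: the cyclooxygenases Ptgs1 and Ptgs2, the prostaglandin synthases Ptges and Hpgds, the lipoxygenases Alox5 and Alox15, the 5-lipoxygenase activating protein Alox5ap, the leukotriene enzymes Lta4h and Ltc4s, and the leukotriene B4 receptor Ltb4r1. They were taken as a list by name, and all 10 were present among the 32285 genes of both count matrices. Cells came from the gingiva of recipient mice studied 12 weeks after bone marrow transplantation (BMT) and 5 days of ligature-induced periodontitis, a model in which a thread tied around a tooth inflames the gum. One group had received 10% Tet2-/- BMT and the other 10% Tet2+/+ BMT. Tet2 encodes a DNA demethylating enzyme that is often mutated in clonal haematopoiesis. By the series' design text, CD45.2+CD11b+ cells were sorted from the first group and CD45+CD11b+ cells from the second, whereas a sample label gives CD45.2+ for the second group too, so the sorting gate may differ between the groups. Each group was 1 single-cell RNA library, here called the Tet2-/- library and the Tet2+/+ library after its label. The name Tet2-/- library does not mean that every cell in it lacks Tet2. The labels give neither the number of mice in a library nor their strain or age. With 1 library per group no difference between groups could be tested, and every interval below is a 95% interval that covers counting error only.

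Arachidonate released from membranes is turned by the cyclooxygenases into prostaglandin H2, from which Ptges makes prostaglandin E2 and Hpgds makes prostaglandin D2. In the other branch Alox5, helped by Alox5ap, makes leukotriene A4, which Lta4h turns into leukotriene B4, a neutrophil attractant read by Ltb4r1, and which Ltc4s joins to glutathione to give leukotriene C4, the first cysteinyl leukotriene. Ptgs2 is the inducible cyclooxygenase of inflamed tissue, Ptgs1 the form present in many resting cells, and prostaglandin E2 is a known driver of bone loss in periodontitis.

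Promoter sequences from RefSeq (GRCm38.p6) were at hand for 8 of the 10 genes. Windows of 200 bases before the start were read for the letters TTGCNNAA, bound by C/EBP factors, and AGGAAGT, bound by PU.1, both factors of myeloid cells, on both strands. Of 32851 promoters, 7.47% held the first and 6.34% the second. Shown here are Ptgs1 and Ltc4s, the genes that set Siglecf-positive neutrophils apart below, and Ptgs2 and Lta4h, of which the first was higher and the second lower in mature than in immature neutrophil-like cells. Capitals mark the matches, and each sequence runs 5′ to 3′ toward the start.

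Ptgs1 (chr2:36230226-36230425, plus strand): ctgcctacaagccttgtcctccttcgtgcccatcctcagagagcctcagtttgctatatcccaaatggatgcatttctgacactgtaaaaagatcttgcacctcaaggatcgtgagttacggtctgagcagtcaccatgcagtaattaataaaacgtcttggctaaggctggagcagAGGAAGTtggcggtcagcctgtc

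Ltc4s (chr11:50238617-50238732, minus strand): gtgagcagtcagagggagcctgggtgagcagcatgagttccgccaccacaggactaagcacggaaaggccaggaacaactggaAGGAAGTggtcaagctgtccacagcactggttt

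Ptgs2 (chr1:150099831-150100030, plus strand): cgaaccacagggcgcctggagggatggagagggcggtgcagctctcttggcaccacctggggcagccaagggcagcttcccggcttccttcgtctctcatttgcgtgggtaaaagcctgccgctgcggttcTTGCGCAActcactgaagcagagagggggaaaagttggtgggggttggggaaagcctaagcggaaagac

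Lta4h (chr10:93453196-93453395, plus strand): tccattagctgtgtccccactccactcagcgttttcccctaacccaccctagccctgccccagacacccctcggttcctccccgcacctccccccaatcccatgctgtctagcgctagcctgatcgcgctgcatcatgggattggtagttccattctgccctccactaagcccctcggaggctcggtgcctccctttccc

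The Ptgs1 and Ltc4s windows each held 1 PU.1 match, 23 and 117 bases before the RefSeq start. For Ltc4s the 84 bases nearest that start were left off, because they lie inside the gene as GENCODE M21 annotates it. The Ptgs2 window held 1 C/EBP match, 69 bases before the start, and the Lta4h window held neither. Among the other members, Hpgds held both, at 176 and 48 bases before the RefSeq start, and Ptges, Alox5 and Ltb4r1 held neither. Both Hpgds matches, most of the Hpgds window and the whole Ptges window lie inside those genes as GENCODE M21 annotates them. By that annotation they are not bases before the start. These are matches of letters, and no binding was measured.

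The libraries held 93919724 and 100782700 unique molecular identifiers (UMIs, counts of captured transcripts), and 9596 and 11672 cells passed the limits of 500 UMIs, 250 genes and 10% mitochondrial UMIs. Median depth was 5920 and 5009 UMIs per cell, and 31 cell barcodes occurred in both libraries. Tet2, the gene named in the labels, was at 97.8 CPM (UMIs of the gene scaled to a common total of UMIs per class and library; 95.7 to 99.9) in the Tet2-/- library and 81.7 (79.9 to 83.6) in the Tet2+/+ library. Its 3′ tags were thus not lower in the library labelled 10% Tet2-/- BMT. The labels do not say which part of Tet2 was deleted, and 3′ tags outside a deleted part do not check the label. Of the cells of the 6 main classes in the Tet2+/+ library, at most 1 per class carried Xist without Y-linked transcripts, whereas in the Tet2-/- library Xist-carrying cells outnumbered Y-carrying cells in all 6, so sex and group cannot be told apart in what follows. Itgam, which encodes CD11b, was at 481 to 695 CPM in neutrophil-like and immature neutrophil-like cells and at 106 to 180 in the T, B and NK cell-like cells of the sort.

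Cells were clustered without the 10 genes and without the wider list of their pathway, and clusters were named from marker genes. Neutrophil-like cells numbered 3850 and 4751 in the Tet2-/- and Tet2+/+ libraries, in that order here and below, immature neutrophil-like cells 1425 and 1261, monocyte-like cells 1324 and 1344, macrophage-like cells 731 and 710, and dendritic-like cells 264 and 245. Siglecf-positive neutrophils were 380 cells (3.96%) and 1371 cells (11.7%). Of the 6 markers behind their name, 4 were above the level of all other cells in each library. Siglecf was at 397 and 410 CPM, against 14.8 and 35.7 in neutrophil-like cells. The neutrophil gene S100a8 was at 34252 and 36692 CPM, below the 80576 and 88369 CPM of neutrophil-like cells, and Csf3r was at 1038 and 965 CPM. Of 8 eosinophil genes, Epx, Prg3, Ear1 and Ear6 were at 0 in both libraries, Prg2 and Il5ra were at 0 and 0.276 CPM, Ccr3 at 0.531 and 2.34 and Ear2 at 3.71 and 3.31. A cluster of 312 and 78 cells led by Arg1, Spp1 and Ccl22 scored best for the erythroid list, with 3 markers of it. Its leading genes instead held the dendritic markers Ccl22, Fscn1 and Ccr7, so it was left unnamed and is called Arg1-led.

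**Figure D1:**
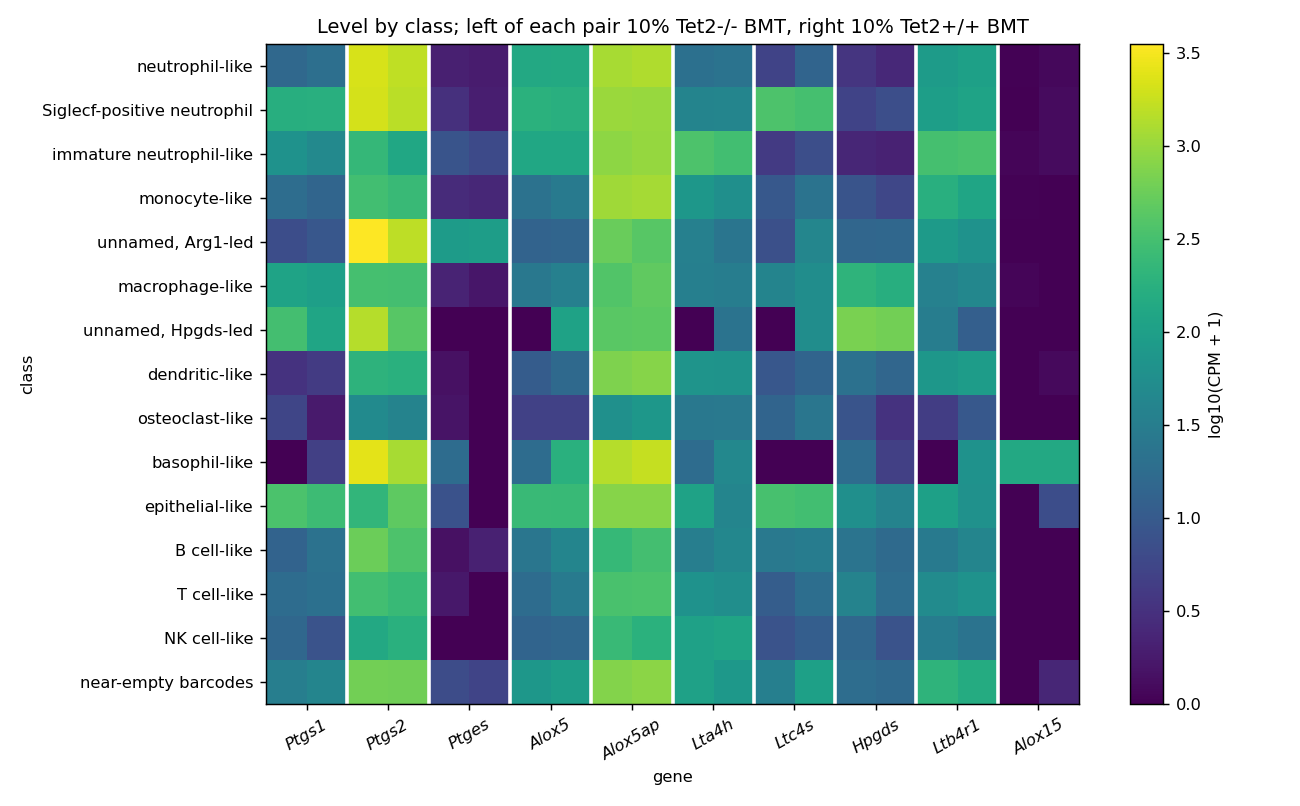
Level of the 10 genes (columns) in 14 classes of cells and in the near-empty barcodes (rows), as log10(CPM + 1). The left cell of each pair is the Tet2-/- library and the right cell the Tet2+/+ library; Alox5ap is high in most myeloid rows, Ptgs2 is highest in the neutrophil-like, Siglecf-positive, Arg1-led and basophil-like rows, and Ltc4s, Hpgds, Ptges and Alox15 are each high in few rows.

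Ptgs2 was highest in mature neutrophils, in the Arg1-led cluster, in basophil-like cells and in an unnamed cluster led by the gland gene Obp1a. That cluster, at 2436 and 2285 CPM, was below the Arg1-led and basophil-like levels in the Tet2-/- library and the highest class in the Tet2+/+ library. It was at 2140 CPM (2118 to 2163) and 1616 CPM (1598 to 1633) in neutrophil-like cells and at 2107 and 1514 CPM in Siglecf-positive neutrophils. In immature neutrophil-like cells it was at 228 and 129 CPM, 9.40-fold and 12.5-fold below the neutrophil-like level. Monocyte-like cells held 294 and 254 CPM, macrophage-like cells 318 and 309 and dendritic-like cells 193 and 179. Neutrophil-like cells contributed 49.3% and 54.5% of all Ptgs2 UMIs in cells. After thinning each cell to 1000 UMIs, 66.4% and 58.6% of neutrophil-like cells had a Ptgs2 UMI, against 15.1% and 9.48% of immature neutrophil-like cells. Thinning makes classes of different depth comparable: median UMIs per cell were 3881.5 and 3839 in neutrophil-like, 4387 and 4759 in Siglecf-positive, 10648 and 12085 in immature neutrophil-like, 10289 and 7408 in macrophage-like, 12965.5 and 10507 in T cell-like and 5285 and 5303 in B cell-like cells. It left out 72 and 123 shallower neutrophil-like, 3 and 10 Siglecf-positive, 29 and 16 immature neutrophil-like and 52 and 88 macrophage-like cells. T cell-like cells, taken as the background, had a Ptgs2 UMI in 10.6% (6.75 to 15.6) and 12.9% (9.51 to 17.0). Before thinning the shares were 86.1% and 79.6% in neutrophil-like, 46.7% and 36.4% in immature neutrophil-like and 39.4% and 38.4% in T cell-like cells. The share in the immature class as a whole was thus within or just under the background's interval, and its level was below that of T cell-like cells (293 and 242 CPM) and of near-empty barcodes with 1 to 50 UMIs, which hold free RNA (610 and 600 CPM). With the 8% of cells of highest doublet score removed, the immature level was 139 and 70.5 CPM. The scores came from a doublet search that marked 0 cells in either library, so the cells removed need not be doublets. The macrophage-like, monocyte-like and dendritic-like levels were likewise under the near-empty level.

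Across the 11 neutrophil-lineage clusters, Lta4h was lowest where Ptgs2 was highest, but a second Ltf-led cluster held much of both. Ptgs2 was at 45.7 and 34.1 CPM in the cluster led by the granule genes Ltf and Camp, at 120 and 73.9 in the Elane-led cluster, at 177 and 106 in the Mmp8-led cluster, at 900 and 635 in a second Ltf-led cluster and at 540 and 279 in the Retnlg-led cluster. It reached 2786 and 2247 CPM in the Csf3r-led cluster, 2933 and 2566 in the Acod1-led and 3193 and 3142 in the Ccl3-led cluster. Lta4h, the hydrolase that makes leukotriene B4, was instead highest in the Ltf- and Camp-led (486 and 405 CPM) and Elane-led (448 and 395) clusters. It was at 123 and 84.9 CPM in the Mmp8-led cluster, at 313 and 211 in the second Ltf-led cluster and between 12.2 and 26.6 CPM in all 6 neutrophil-like clusters of both libraries. The clusters were ordered in the plot by their level of the immature neutrophil markers, which include neither gene, and the order is not a measured time course.

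**Figure D2:**
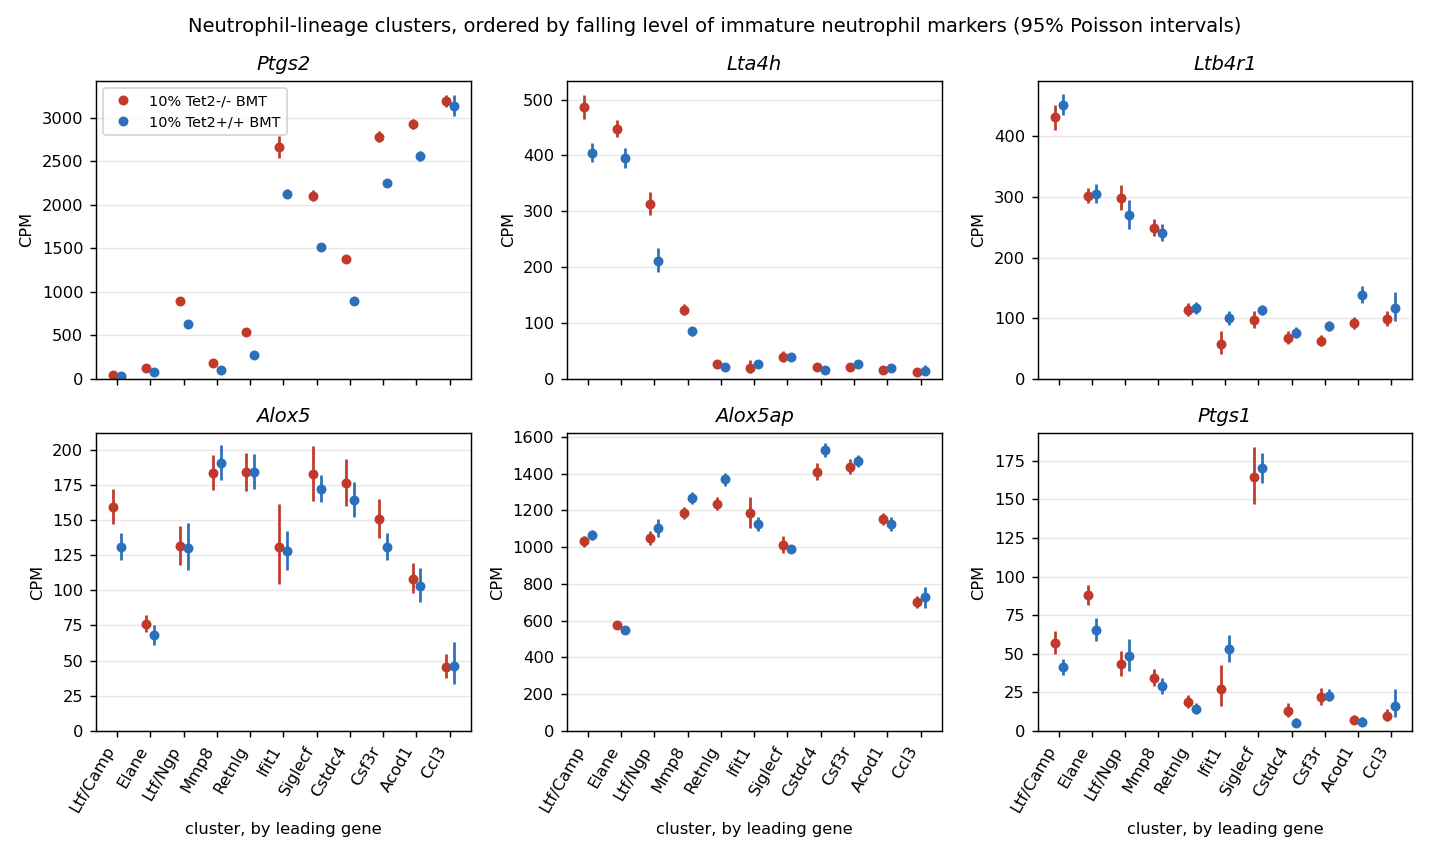
Level (CPM) of 6 genes in the 11 neutrophil-lineage clusters, named by leading gene and ordered from left to right by falling summed level of 10 immature neutrophil markers; red points are the Tet2-/- library, blue points the Tet2+/+ library, and bars exact 95% Poisson intervals. Ptgs2 spans 34.1 CPM in the Ltf- and Camp-led to 3193 CPM in the Ccl3-led cluster and Lta4h, highest at 486 CPM in the Ltf- and Camp-led cluster, is as low as 12.2 CPM among the neutrophil-like clusters, and Ptgs1 stands at 165 and 170 CPM in the Siglecf-led cluster.

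Among the classes Lta4h was highest in the immature neutrophils. Immature neutrophil-like cells held 361 and 293 CPM, which was 18.6-fold (16.7 to 20.9) and 13.6-fold (12.3 to 15.01) the neutrophil-like level of 19.4 and 21.5 CPM, and they contributed 69.0% and 63.4% of its UMIs. At 1000 UMIs per cell, 24.3% and 20.3% of immature neutrophil-like cells had an Lta4h UMI, against 4.81% and 7.21% of T cell-like cells and 2.01% and 2.33% of neutrophil-like cells. Before thinning those shares were 75.0% and 70.8%, 47.6% and 44.7%, and 7.61% and 8.36%. NK cell-like cells, at 107 and 117 CPM, had the highest level among the lymphoid classes. Near-empty barcodes had 107 and 77.6 CPM of Lta4h, above the neutrophil-like level and below the immature one.

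Ltb4r1, the high-affinity receptor for leukotriene B4, was also higher in immature than in mature neutrophil-like cells, by a smaller ratio than Lta4h. It was at 317 and 333 CPM in immature neutrophil-like cells, 3.62-fold and 3.27-fold its level of 87.5 and 102 CPM in neutrophil-like cells. Siglecf-positive neutrophils were close to the latter at 97.1 and 113 CPM, monocyte-like cells held 172 and 120 CPM, and macrophage-like cells only 35.0 and 42.5. Its highest cluster was the Ltf- and Camp-led one, at 431 and 452 CPM. In thinned cells, 25.5% and 26.1% of the immature neutrophil-like cells had a UMI of it (88.8% and 88.7% before thinning), against 1.55% and 2.06% of B cell-like cells (9.94% and 12.5% before thinning) and 4.33% and 6.91% of T cell-like cells (33.2% and 35.1%). Near-empty barcodes held 204 and 153 CPM. Between the immature and mature neutrophil-like classes, Lta4h and Ltb4r1 were past 1.5-fold higher and Ptgs2 lower in both libraries, with Ptgs1 higher in the Tet2-/- library, 4 of 6 and 3 of 5 eligible members, where 60.6% and 59.4% of all eligible genes passed (eligible: 50 CPM or more in either sum and at least 100 UMIs over both). In the wider list of 59 pathway genes, the microsomal glutathione transferase Mgst2, a relative of Ltc4s, was 10.7-fold and 7.87-fold higher in the immature class, at 156 and 184 CPM, and Pla2g7, Ggt5 and Cyp4f18 were lower.

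Alox5 and Alox5ap, which act together in the first step of leukotriene synthesis, spanned the neutrophil lineage more evenly. Alox5 was at 135 and 141 CPM in neutrophil-like, 127 and 130 in immature neutrophil-like and 183 and 172 in Siglecf-positive cells, and the ratios between immature and mature cells were 0.937 and 0.917. Its levels in monocyte-like (20.9 and 26.6 CPM), macrophage-like (24.9 and 34.4) and dendritic-like cells (9.73 and 15.1) were below the 74.7 and 94.7 CPM of near-empty barcodes. Among thinned cells, 11.8% and 12.1% of the neutrophil-like cells had an Alox5 UMI (38.2% and 39.5% before thinning), against 1.92% and 1.80% of T cell-like cells (14.9% and 20.1%). Among neutrophil clusters it was lowest in the Ccl3-led cluster (45.5 and 46.5 CPM) and highest in the Mmp8- and Retnlg-led clusters (183 to 190 CPM). Alox5ap was the most widely shared of the 10 genes, at 1195 and 1332 CPM in neutrophil-like cells, 1082 and 1161 in monocyte-like cells, 882 and 980 in immature neutrophil-like cells, 731 and 810 in dendritic-like cells and 385 and 471 in macrophage-like cells. Monocyte-like cells therefore carried the transcript of the activating protein at a level like that of neutrophils, with little of the enzyme's. In thinned cells 66.6% and 71.5% of neutrophil-like and 17.3% and 16.8% of T cell-like cells had an Alox5ap UMI (93.5% and 95.3%, and 60.6% and 55.6%, before thinning). T cell-like cells held 340 and 350 CPM of Alox5ap, and near-empty barcodes 771 and 838 CPM.

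Ltc4s was highest in the Siglecf-positive neutrophils and in a small epithelial-like cluster. In the neutrophils it was at 362 CPM (336 to 391) and 316 CPM (303 to 329), against 4.16 CPM (3.24 to 5.27) and 12.8 CPM (11.3 to 14.4) in neutrophil-like cells, a ratio of 87.1 (67.9 to 113) in the Tet2-/- library and 24.7 (21.7 to 28.2) in the Tet2+/+ library. It was the low level that differed between the libraries, and that level was 12.5% of the Ltc4s level in near-empty barcodes (33.3 and 102 CPM) in either library. The Siglecf-positive level itself was above the near-empty level in both. At 1000 UMIs per cell, 25.7% (21.4 to 30.5) and 26.3% (24.0 to 28.7) of Siglecf-positive neutrophils had an Ltc4s UMI, against 0.424% and 1.19% of neutrophil-like and 0.962% and 1.80% of T cell-like cells. Without thinning these shares were 62.1% and 59.6%, 1.30% and 3.47%, and 9.13% and 11.1%. The class held 41.9% and 58.5% of all Ltc4s UMIs in cells. Over all kept cells Ltc4s was at 19.1 CPM in the Tet2-/- and 44.5 CPM in the Tet2+/+ library, where the class was also the larger share of cells, while within the class its level was 1.15-fold (1.05 to 1.25) higher in the Tet2-/- library.

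Ptgs1, the constitutive cyclooxygenase, was the other member raised in Siglecf-positive neutrophils. It was at 165 and 170 CPM there and at 14.7 and 18.8 CPM in neutrophil-like cells, ratios of 11.2 (9.46 to 13.3) and 9.04 (8.05 to 10.2). At 1000 UMIs per cell, 15.6% and 16.0% of the Siglecf-positive cells had a Ptgs1 UMI, against 1.30% and 1.53% of neutrophil-like and 2.40% and 2.40% of T cell-like cells (before thinning 47.6% and 50.4%, 5.30% and 6.08%, and 12.98% and 12.3%). Macrophage-like cells held 113 and 98.1 CPM and immature neutrophil-like cells 62.5 and 45.4 CPM, so Ptgs1 was higher in immature than in mature neutrophil-like cells but higher again in the Siglecf-positive ones. Epithelial-like cells held more, 352 and 266 CPM. An unnamed cluster led by Hpgds held 307 and 120 CPM, from 10 and 11 UMIs. Within the class Ltc4s and Ptgs1 showed no common direction. In thinned cells with an Ltc4s UMI, 12.4% and 16.5% had a Ptgs1 UMI, against 16.8% and 15.9% of those without.

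The other eligible members were under 1.5-fold between Siglecf-positive and other neutrophils. Among 6 eligible members, Ptgs1 and Ltc4s were past 1.5-fold in both libraries and none was lower by that much. This contrast moved most of the transcriptome, with 60.8% and 58.5% of all eligible genes past 1.5-fold, so the count of 2 of 6 is not above the background. The ratio was 0.985 and 0.937 for Ptgs2, 1.35 and 1.22 for Alox5, 0.848 and 0.743 for Alox5ap and 1.11 and 1.11 for Ltb4r1. Of the wider list, 7 and 8 genes were eligible. Ptges3, a cytosolic prostaglandin E synthase and chaperone partner, was higher in both libraries (105 against 38.0 CPM and 122 against 47.8). Pla2g7, which degrades platelet-activating factor, the microsomal glutathione transferase Mgst1 and the lipoxin and formyl peptide receptor Fpr2 were lower in both. The cysteinyl leukotriene receptor Cysltr1 was at 59.6 CPM against 5.74 CPM in the Tet2+/+ library, and at 49.4 against 2.84 CPM, just under the limit of 50, in the Tet2-/- library. Cotl1, an actin-binding partner of Alox5, was 1.56-fold and 1.49-fold higher, past the limit in the Tet2-/- library only. Lta4h, Hpgds, Ptges and Alox15 were too low to be eligible. Lta4h was at 39.3 and 39.9 CPM in Siglecf-positive neutrophils, 2.03-fold (1.55 to 2.62) and 1.85-fold (1.59 to 2.15) the neutrophil-like level. Hpgds was at 4.25 against 2.53 CPM and at 6.21 against 1.57 CPM, ratios of 1.68 (0.679 to 3.61) and 3.95 (2.46 to 6.43).

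**Figure D3:**
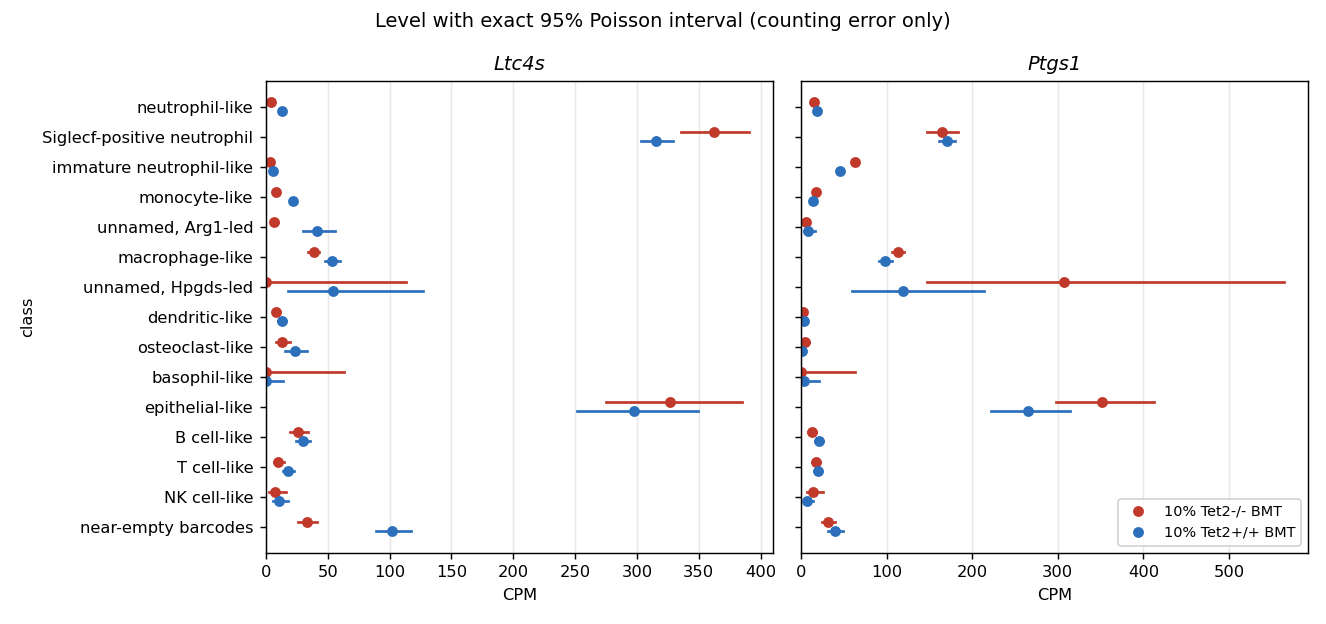
Level (CPM) of Ltc4s and Ptgs1 in 14 classes and in near-empty barcodes for the Tet2-/- (red) and Tet2+/+ (blue) libraries, with exact 95% Poisson intervals. Siglecf-positive neutrophils, at 362 and 316 CPM of Ltc4s, and epithelial-like cells, at 327 and 297 CPM, are the highest rows for that gene.

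A small epithelial-like cluster of 34 and 46 cells held as much Ltc4s as the Siglecf-positive neutrophils, 327 CPM (275 to 385) and 297 CPM (252 to 349), with 250 and 246 CPM of Alox5, 806 and 793 of Alox5ap and 352 and 266 of Ptgs1. Its leading genes were Wfdc18, Cyp2a5, Krt18, Epcam, Krt8, Cyp2f2, Cyp2g1 and Scgb1c1, with Gng13 and Il25, which are known from tuft cells. The tissue these cells came from was not tested. They were split by tuft cell genes after the values had been seen. The 22 and 33 cells with a Trpm5, Il25 or Gng13 UMI held 479 and 370 CPM of Ltc4s, 364 and 291 of Alox5, 1125 and 942 of Alox5ap and 499 and 323 of Ptgs1. The 12 and 13 cells without one had no Ltc4s UMI, which allows up to 26.9 and 37.4 CPM. Itgam, the gene of the sorted marker CD11b, was at 151 and 110 CPM in the cluster.

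Hpgds was highest in macrophage-like cells and in a small cluster that it led. Macrophage-like cells had 200 CPM (191 to 210) and 165 CPM (155 to 175), against 7.35 and 4.70 CPM in monocyte-like cells, ratios of 27.3 (23.1 to 32.3) and 35.1 (28.2 to 44.1), and the class held 72.0% and 68.4% of its UMIs. At 1000 UMIs per cell, 19.4% and 13.7% of macrophage-like cells had an Hpgds UMI, against 2.80% and 2.06% of B cell-like and 1.92% and 1.20% of T cell-like cells (62.0% and 46.1%, 13.04% and 8.61%, and 24.5% and 14.4%, before thinning). A separate unnamed cluster of 17 and 43 cells, with a median of 1242 UMIs per cell and the scavenger receptor gene Stab1 among its leading genes, held 675 CPM (423 to 1020) and 620 CPM (470 to 803) from 22 and 57 UMIs. It scored best for the macrophage list, with 9 markers of it. Neutrophil-like and immature neutrophil-like cells held at most 2.53 CPM in either library.

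Alox5ap, Lta4h and Ltb4r1 were lower, and Ptgs1 and Hpgds higher, in macrophage-like than in monocyte-like cells of both libraries. Relative to monocyte-like cells, macrophage-like cells had 6.42-fold and 7.26-fold more Ptgs1, while Alox5ap was 2.81-fold and 2.46-fold lower, Lta4h 2.25-fold and 1.82-fold lower and Ltb4r1 4.92-fold and 2.83-fold lower. Ltc4s was 2.47-fold (2.13 to 2.86) higher in the Tet2+/+ library, and 4.60-fold (3.82 to 5.57) higher in the Tet2-/- library, where it was not eligible. Alox5, not eligible in either, was 1.19-fold (1.00 to 1.41) and 1.29-fold (1.10 to 1.52) higher. Of 6 and 7 eligible members, 2 and 3 were higher and 3 and 3 lower past 1.5-fold, where 40.3% and 33% of all eligible genes passed. In the wider list Tbxas1, the thromboxane synthase, was at 102 and 107 CPM in macrophage-like cells and 3.51-fold and 4.08-fold above monocyte-like cells. The prostaglandin E2 receptor Ptger4 was 3.82-fold and 3.05-fold higher and Cysltr1 1.87-fold and 1.73-fold higher. The phospholipase Pla2g15 was 4.82-fold and 4.88-fold higher and the diacylglycerol lipase Daglb 2.09-fold and 1.71-fold. In the Tet2-/- library Plaat3 (3.52-fold), Prxl2b (3.72-fold) and Hpgd (3.32-fold) were also higher. In the Tet2+/+ library Plaat3 (47.5 against 14.5 CPM) and Prxl2b (47.3 against 18.8 CPM) went the same way under the limit of 50 CPM. Hpgd there was at 101 against 64.8 CPM, not past 1.5-fold with the pseudocount. Mgst1 was 5.87-fold and 4.26-fold lower, with Fpr2 1.71-fold lower in the Tet2-/- library and Cyp4f16 3.40-fold lower in the Tet2+/+ library. Cyp4f16 was also lower in the Tet2-/- library, at 20.7 against 45.8 CPM, under the limit of 50 CPM. Altogether 8 of 15 and 5 of 14 eligible genes of the list were higher and 2 and 2 lower.

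Ltc4s and Alox5 varied within the C1qa-led macrophage cluster. The cells with a UMI of Cd163, Folr2 or Lyve1, genes of resident tissue macrophages, numbered 83 and 39, and this split was chosen after the levels had been seen. They held 101 CPM (84.9 to 119) and 188 CPM (156 to 223) of Ltc4s, against 26.6 and 40.1 CPM in the 454 and 368 cells without, and 56.6 and 55.5 CPM of Alox5, against 13.4 and 22.9. Hpgds was not higher in them, at 182 and 131 CPM against 222 and 194, and Ptgs1 was at 86.4 and 40.5 CPM against 128 and 119. In the same cluster, 8.40% and 4.23% of thinned cells with an Hpgds UMI had a Ptgs2 UMI, against 16.3% and 13.2% of those without.

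Ptges and Ptgs2, which act in sequence toward prostaglandin E2, were both high in the Arg1-led cluster. Its 312 and 78 cells had 88.4 CPM (78.9 to 98.6) and 92.0 CPM (74.1 to 113) of Ptges, the inducible microsomal prostaglandin E synthase, against 1.70 and 1.48 CPM in monocyte-like cells, ratios of 52.1 (36.8 to 75.7) and 62.3 (40.4 to 98.8). Ptges was at 7.33 and 5.19 CPM in immature neutrophil-like cells and at most 2.12 CPM in the other 5 main classes. The cluster, 3.25% and 0.668% of cells, gave 59.1% and 37.8% of its UMIs. Immature neutrophil-like cells, 14.8% and 10.8% of cells, gave 26.4% and 37.3%, close to the cluster's share in the Tet2+/+ library. At 1000 UMIs per cell, 10.6% and 12.0% of the cluster had a Ptges UMI (22.4% and 14.1% before thinning), against 0 of 208 and 0 of 333 T cell-like cells, which allows up to 1.76% and 1.10%. Ptgs2 was at 3518 and 1544 CPM, 12.0-fold and 6.07-fold the monocyte-like level, and the arachidonate-releasing phospholipase Pla2g4a was at 77.0 and 64.7 CPM, 3.05-fold and 2.59-fold. Abcc1, a transporter that exports leukotriene C4, was 7.87-fold and 5.48-fold higher. Of 10 and 13 eligible genes of the wider list, 5 and 5 were higher and 2 and 5 lower. Ptger4 (1.90-fold and 2.27-fold) and Fpr2 (1.80-fold and 1.71-fold) were higher in both libraries, Pla2g7 (1.74-fold) in the Tet2-/- library and Plaat3 (6.34-fold) in the Tet2+/+ library. Akr1b3 (2.04-fold and 2.02-fold) and Mgst1 (4.32-fold and 7.27-fold) were lower in both, and Hpgd (2.02 against 64.8 CPM), Cyp4f18 (2.28-fold) and Cyp4f16 (4.06-fold) in the Tet2+/+ library. Under the limit of 50 CPM in the Tet2-/- library, Hpgd (5.00 against 37.1 CPM) and Cyp4f16 (12.2 against 45.8 CPM) were lower and Plaat3 (37.8 against 14.6 CPM) higher there too. Alox5ap, Lta4h and Ltb4r1 were lower in the cluster than in monocyte-like cells in both libraries, and all 5 eligible members were past 1.5-fold in each library, where 46.9% and 40.5% of all eligible genes were.

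Alox15, a 12- and 15-lipoxygenase, was close to absent outside basophil-like cells. These numbered 10 and 37 and held 136 CPM (58.8 to 268) and 139 CPM (97.6 to 191), from 8 of the 13 and 37 of the 57 Alox15 UMIs in kept cells. Basophil-like cells also held 2536 and 1217 CPM of Ptgs2 and 1396 and 1700 CPM of Alox5ap. Macrophage-like cells had 1 and 0 Alox15 UMIs.

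**Figure D4:**
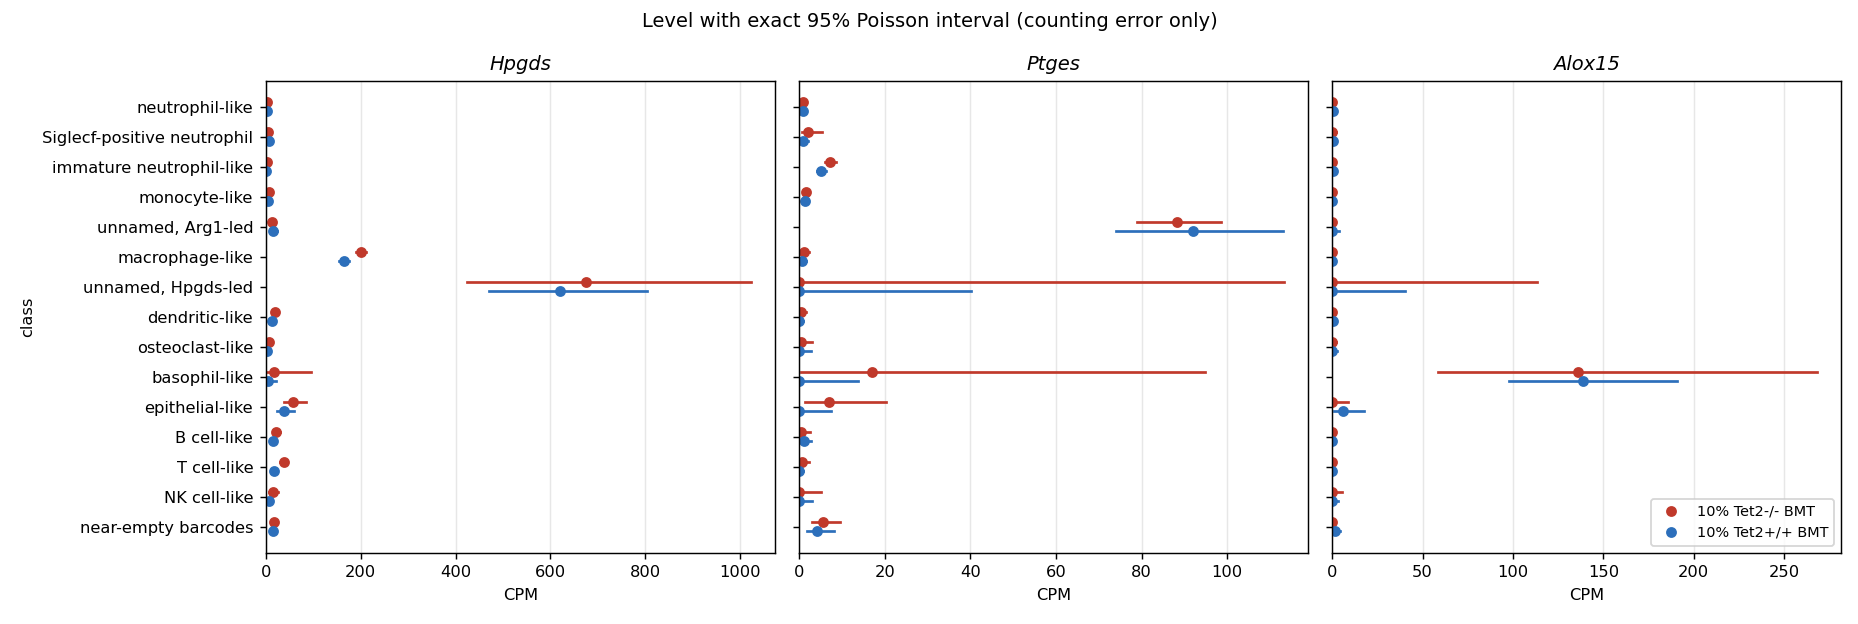
Level (CPM) of Hpgds, Ptges and Alox15 in 14 classes and in near-empty barcodes for the Tet2-/- (red) and Tet2+/+ (blue) libraries, with exact 95% Poisson intervals. Each gene peaks in a different small class: Hpgds in the Hpgds-led and macrophage-like cells, Ptges at 88.4 and 92.0 CPM in the Arg1-led cells and Alox15 at 136 and 139 CPM in basophil-like cells.

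Among eligible members, Ptgs2 was the one past 1.5-fold between the libraries. In immature neutrophil-like cells it was 1.76-fold (1.68 to 1.86) higher in the Tet2-/- library, and 1 of 6 eligible members was higher past 1.5-fold, where 3.2% of 2096 eligible genes were (3.86% in either direction). That class had Ptgs2 below the level of near-empty barcodes in both libraries, and the part of free RNA in the ratio was not tested beyond a subtraction that left it past 1.5-fold. In the Arg1-led cluster it was 2.28-fold (2.16 to 2.40) higher, 1 of 4 eligible members, beside a background of 7.62% of 2914 genes. In neutrophil-like cells the ratio was 1.32 (1.30 to 1.34), and in Siglecf-positive neutrophils 1.39 (1.34 to 1.44), under the limit of 1.5-fold. Every neutrophil-like cluster, 6 of 6, had more Ptgs2 in the Tet2-/- library, from 1.02-fold in the Ccl3-led cluster, whose interval spanned 1, to 1.94-fold in the Retnlg-led cluster, and so had all 4 immature neutrophil-like clusters, from 1.34-fold to 1.67-fold. With the clusters of a class weighted equally in both libraries the ratio was 1.22 in neutrophil-like and 1.51 in immature neutrophil-like cells. In macrophage-like and dendritic-like cells the ratios were 1.03 (0.968 to 1.09) and 1.08 (0.979 to 1.19).

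Immediate early genes were higher beside Ptgs2 in the immature class, but not in every class where Ptgs2 was higher. Of 10 immediate early genes, a list chosen after earlier results on these data, Fosb, Egr1 and Nr4a1 were past 1.5-fold in the immature neutrophil-like cells, with a median log2 ratio of 0.43 against 0.13 over all eligible genes, and in neutrophil-like cells only Fosb was, with a median of 0.12 against -0.08. In the Arg1-led cluster 1 of 10 was, Nr4a1, with a median of 0.03 against -0.01, and in Siglecf-positive neutrophils 0 of 10, with a median of -0.04 against -0.02. In monocyte-like cells Dusp1 was lower past 1.5-fold and the median was -0.25 against 0.04. Of all eligible genes, 3.86% of immature neutrophil-like, 5.51% of neutrophil-like, 15.1% of Arg1-led, 2.73% of Siglecf-positive and 3.51% of monocyte-like passed, in either direction. Immediate early genes respond quickly to handling as well as to stimuli, and their part in the Ptgs2 difference was not tested. In immature neutrophil-like cells typed by sex, the Xist-carrying cells of the Tet2-/- library against the Y-carrying cells of the Tet2+/+ library gave a log2 ratio of 0.49, under the limit of 1.5-fold, against 0.77 in all cells. The Y-carrying cells of both libraries, a setting chosen after seeing the data with only 38 such cells in the Tet2-/- library, gave 1.42. In Siglecf-positive neutrophils the same setting, with 32 cells, gave -0.06 against 0.47 in all cells. Whether the Y-carrying cells of the Tet2-/- library came from the Tet2-/- transplant was not tested, and they need not be Tet2-/-. In neutrophil-like cells the log2 ratio was 0.40, and 0.62 and 0.60 with the TMM and median-of-ratios scalings, which put Ptgs2 past 1.5-fold and move the median of all eligible genes from -0.08 to 0.12 and 0.11.

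The eligible leukotriene genes differed less. No eligible member was past 1.5-fold in neutrophil-like (0 of 4), Siglecf-positive (0 of 6), monocyte-like (0 of 4), macrophage-like (0 of 5) or dendritic-like cells (0 of 4), where 5.51%, 2.73%, 3.51%, 1.66% and 1.97% of eligible genes were, in either direction. The medians of the members' log2 ratios in those classes were -0.11, 0.06, 0.26, 0.04 and -0.07, and over all eligible genes -0.08, -0.02, 0.04, 0.02 and -0.01. Lta4h was 1.23-fold (1.19 to 1.28) higher in immature neutrophil-like cells of the Tet2-/- library, and higher in 4 of 4 clusters of the class (1.13-fold to 1.48-fold). It was 1.30-fold (1.20 to 1.40) higher in monocyte-like cells. Ltb4r1 was 1.43-fold (1.36 to 1.51) higher in monocyte-like cells, in 3 of 4 clusters, and 1.16-fold (1.09 to 1.24) lower in neutrophil-like cells, in 6 of 6 clusters. Over the settings run, the log2 ratio of Lta4h in immature neutrophil-like cells ran from -0.20 to 0.41. That of Ltb4r1 in neutrophil-like cells ran from -0.25 to 0.17, so the sign of both depended on the setting. In monocyte-like cells they ran from 0.09 to 0.39 for Lta4h and from 0.22 to 0.60 for Ltb4r1. Monocyte-like Lta4h (73.3 and 56.5 CPM) and Ltb4r1 (172 and 120 CPM) were under the near-empty levels, which were also higher in the Tet2-/- library. The part of free RNA in these monocyte-like ratios was not tested. A subtraction left them under 1.5-fold, where they already were, so it cannot decide the question. Alox5 had a ratio of 0.957 (0.905 to 1.01) in neutrophil-like and 1.06 (0.939 to 1.20) in Siglecf-positive cells. Alox5ap was 1.11-fold lower in neutrophil-like and immature neutrophil-like cells and 1.22-fold (1.16 to 1.29) lower in macrophage-like cells. Ltc4s in macrophage-like cells was 1.39-fold (1.19 to 1.63) lower in the Tet2-/- library, at 38.6 against 53.7 CPM, beside 33.3 against 102 CPM in near-empty barcodes. In classes where Ltc4s was too low to be eligible it was lower by more: 3.07-fold (2.35 to 4.07) in neutrophil-like, 2.08-fold (1.49 to 2.92) in immature neutrophil-like and 2.59-fold (2.17 to 3.11) in monocyte-like cells, where it was at 8.38 against 21.7 CPM. In the Arg1-led cluster it was at 6.39 against 41.5 CPM, 6.49-fold (3.80 to 11.3) lower. The part of free RNA in these was not tested. With free RNA subtracted the macrophage-like log2 ratio of Ltc4s was -0.15 rather than -0.39, and the gene was no longer eligible. Hpgds was 1.22-fold (1.12 to 1.32) higher in macrophage-like cells of the Tet2-/- library, and Ptges in the Arg1-led cluster had a ratio of 0.960 (0.758 to 1.23). Over all kept cells Ptges was at 6.31 against 2.74 CPM, where the Arg1-led cluster was also the larger share of cells.

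**Figure D5:**
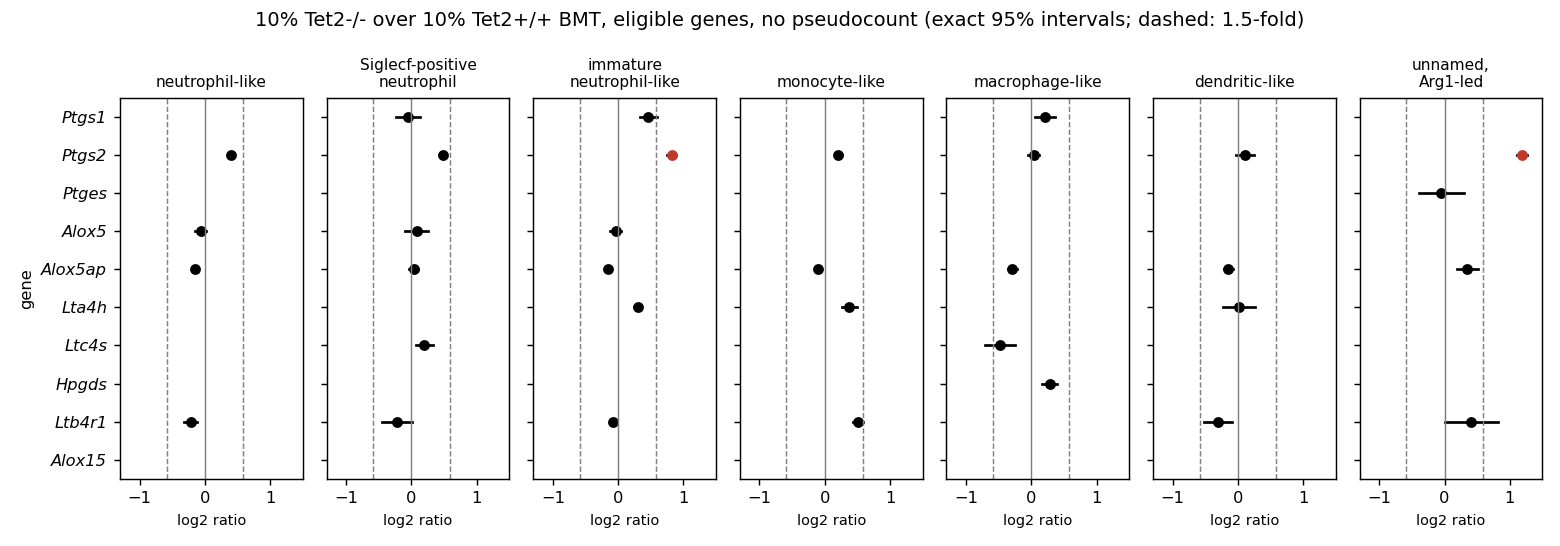
Log2 ratio of the Tet2-/- over the Tet2+/+ library, without pseudocount, for the eligible members of 7 classes, with exact 95% intervals that cover counting error only. Dashed lines mark 1.5-fold; only Ptgs2 in the immature neutrophil-like and Arg1-led cells (red, 1.76-fold and 2.28-fold) lies past them, and Alox15 is eligible in none of these classes.

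In the wider pathway list, as among all eligible genes, few genes of the 6 main classes were past 1.5-fold between the libraries. Of 6, 8, 6, 9, 15 and 6 eligible genes in neutrophil-like, Siglecf-positive, immature neutrophil-like, monocyte-like, macrophage-like and dendritic-like cells, 1 was past 1.5-fold: Hpgd, the dehydrogenase that inactivates prostaglandins, lower in monocyte-like cells at 37.1 against 64.8 CPM. Among all eligible genes of these classes 5.51%, 2.73%, 3.86%, 3.51%, 1.66% and 1.97% passed, in either direction. In the Arg1-led cluster Mgst1, the leukotriene B4 hydroxylase Cyp4f18 and Abcc1 were higher and the phospholipase Plaat3 lower, 4 of 10 eligible, where 15.1% of eligible genes passed in either direction. The highest members of the list by group were Pla2g7 (551 CPM in neutrophil-like cells), Ptges3 (220 CPM in osteoclast-like cells), Cotl1 (969 CPM in Siglecf-positive neutrophils), Alox8 (41.2 CPM in basophil-like cells, from 11 UMIs), Cyp4f18 (854 CPM in basophil-like cells) and Fpr2 (357 CPM in immature neutrophil-like cells).

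Over 24 class and library sums of 12 named classes, the genes whose log2(CPM + 10) followed a member most closely were, for Ptgs2, the inflammasome sensor gene Nlrp3 (Pearson r = 0.96), Plk3 (0.96) and Cyp4f18 (0.95). For Lta4h they were Mgst2 (0.83), Ly75 and Cpne3, and for Ltb4r1 St3gal5 (0.90), Tbc1d8 and Palm. Hpgds went with Cp (0.89), Gas6 and Slco2b1, and Ltc4s with Ccng1 (0.89), Krcc1 and Scgb1c1. These are descriptions over sums that share libraries and depth, and most of the spread is between classes.

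Positions are from GENCODE M21 on GRCm38 (mm10). Ptgs1 spans chr2:36230426-36252272 on the plus strand and Ptges chr2:30889471-30929863 on the minus strand of the same chromosome. Ptgs2 is at chr1:150100031-150108227, Alox5ap at chr5:149264767-149288153, Alox5 at chr6:116410077-116461178, Hpgds at chr6:65117293-65144908, Lta4h at chr10:93453411-93484875, Ltc4s at chr11:50236461-50238616, Alox15 at chr11:70344152-70352031 and Ltb4r1 at chr14:55765962-55768494. An exon of the antisense gene Ptgs2os overlaps the window printed for Ptgs2.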

How the data were processed

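Single-cell RNA was measured in 2 libraries, 1 per group, with the 10x 3' version 3.1 chemistry per the labels. The deposited matrices hold raw UMI counts per gene and barcode, made by the authors with Cell Ranger 6.1.2 and mm10 per the submitters' processing notes, while the matrix header names Cell Ranger 4. From these counts, cells with at least 500 UMIs, 250 genes and at most 10% mitochondrial UMIs were kept, which removed 248 and 489 barcodes. Scrublet marked 0 cells in either library and so had not worked, and doublets remain.

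Clustering used 2000 variable genes without the 10 members and the wider pathway list, 30 components, 20 neighbours and Leiden resolution 1 (scanpy 1.11.5, leidenalg 0.10.2), which gave 30 clusters. A cluster took the name of the marker list with at least 3 markers detected in 10% of its cells at a log2 excess of 0.5; clusters led by another list, of low depth or led by gland transcripts stayed unnamed. The naming thresholds were chosen with the clusters in view. Sums of UMIs over each class and library were scaled to CPM. Log2 ratios used a pseudocount of 10 CPM. Levels carry exact Poisson, ratios exact conditional binomial and shares Clopper-Pearson intervals. Genes were eligible at 50 CPM in either sum and 100 UMIs over both, and the size limit was 1.5-fold. Near-empty barcodes are those with 1 to 50 UMIs.

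The members, gene lists and other settings were chosen with earlier results of these data known. All 10 members are named; of the pathway list, those past 1.5-fold and the highest of each group; for likeness, the 3 genes of highest correlation. Of 61 pathway symbols listed, 59 were found. In simulated Poisson counts for the neutrophil-like comparison, over 2133 genes, all genes set to 2-fold or its inverse were recovered (100% each), 0 unchanged genes were called and 94.7% of intervals covered the true ratio. The 200 changed genes were drawn from those at 100 CPM or more. The counts followed the model the intervals assume, so this checks the computation only, and variation between libraries was not simulated.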

Additional observations from a re-analysis of the deposited data

Results flagged for a closer look

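Ltc4s and Ltb4r1 had ratios of the Tet2-/- over the Tet2+/+ library on opposite sides of 1 in different classes. For Ltc4s the ratio was 1.15 in Siglecf-positive neutrophils and 0.719 in macrophage-like cells. For Ltb4r1 it was 1.43 in monocyte-like cells, 0.860 in neutrophil-like cells, 0.952 in immature neutrophil-like cells and 0.810 in dendritic-like cells. These differences between classes were not tested. The near-empty barcodes of the Tet2+/+ library held more Ltc4s (102 against 33.3 CPM), and with free RNA subtracted the macrophage-like log2 ratio was -0.15 rather than -0.39.

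Barcodes with 51 to 499 UMIs, which no comparison used, held Ptges at 14.1 CPM in the Tet2-/- and 3.74 CPM in the Tet2+/+ library, against 6.31 and 2.74 CPM in kept cells. They held Alox15 at 1.41 and 3.12 CPM, from 8 and 30 UMIs, against 0.152 and 0.648 CPM in kept cells.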

How the results depend on the processing

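With 1 library per group no library could be left out, and no paired analysis was possible because each group has a single library. Of 29 log2 ratios, 26 to 29 kept their sign and 27 to 29 their side of 1.5-fold under the 11 other settings run for all of them, apart from the Y-carrying cells of both libraries, a setting chosen after seeing the data, where 18 and 26 did. No called ratio changed direction. Counts of members past 1.5-fold changed as follows. The share of all eligible genes past 1.5-fold under each setting is not given here. The changed counts therefore cannot be set against a background. In neutrophil-like cells 0 became 1 with TMM scaling and 1 with median-of-ratios scaling (Ptgs2 higher), and 1 with eligibility at 10 CPM (Ltc4s lower). In immature neutrophil-like cells 1 became 0 with Xist-carrying against Y-carrying cells. In monocyte-like cells 0 became 1 at Leiden resolution 2 (Ltb4r1, log2 ratio 0.60), 1 with eligibility at 10 CPM (Ltc4s lower) and 1 with Y-carrying cells (Alox5 higher). In macrophage-like cells 0 became 1 with Xist-carrying against Y-carrying cells (Ltc4s, -0.78) and 2 with Y-carrying cells (Hpgds 0.80, Alox5ap -0.78). In dendritic-like cells 0 became 1 with Y-carrying cells (Ptgs2, -1.14), of which the Tet2-/- library had only 5. The causes were not tested, beyond the more genes tested at 10 CPM and the fewer cells of the sex-typed settings. Macrophage-like ratios kept sign and call without clusters 21 (low depth) and 25 (mixed leading genes), in all 5 cases. Depth limits the rare classes most: Alox15 rests on 8 and 37 UMIs in basophil-like cells.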

Other observations

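Some classes outside the comparisons carried members too. The unnamed Obp1a-led cluster, which held neutrophil markers together with transcripts of odorant-binding proteins made by glands, had 2436 and 2285 CPM of Ptgs2, 1245 and 1265 CPM of Alox5ap and 116 and 112 CPM of Alox5 in the Tet2-/- and Tet2+/+ libraries. Osteoclast-like cells, the bone-resorbing cells of the sort, numbered 38 and 26 and had little of any member: 49.3 and 37.5 CPM of Ptgs2, 58.9 and 74.9 CPM of Alox5ap and 25.2 and 26.5 CPM of Lta4h. The B cell-like class joined a cluster with 29.1 and 39.5 CPM of Ptgs2 and another, which also held neutrophil transcripts, with 1300 and 804 CPM.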
